A study of Rattus norvegicus with 10 samples.

Results

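The 9 genes described here code for neuronal proteins that bind calcium through EF-hands: *Necab1*, *Necab2*, *Necab3*, *Calb1*, *Calb2*, *Pvalb*, *Hpca*, *Ncald* and *Vsnl1*. They were found by symbol among the 12828 genes of the authors' deposited table, and all 9 have a row. The list was selected on the authors' ranking of genes between diets as far as *Necab1* is concerned, which stood near the top of it, and the other 8 genes were added as relatives of kind or use.

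RNA was sequenced from the arcuate nucleus (ARC) of 10 Wistar rat dams at parturition. Of these, 5 had been fed 5X-FA, a diet with folic acid at 5 times the recommended level, and 5 had been fed 5X-MTHF, with methylfolate (the calcium salt of 5-methyltetrahydrofolic acid) at an equimolar level. All 10 dams were pregnant for the first time, received their diet through pregnancy only, and were on a high folate level, so that the series holds no library from a dam on the recommended level. The ARC is the nutrient-sensing nucleus at the base of the hypothalamus, and it was cut free hand from frozen brain slices, with the third ventricle as the landmark.

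The values given here are the authors' average log2 CPM (reads on a gene, scaled to the size of the library) over all libraries, 1 value per gene. No value of a dam or of a diet group is reported, and no difference between 5X-MTHF and 5X-FA dams was tested. The 10 columns of values per library in the deposited table are headed by bare numbers that match no sample label, so they were not used here. The authors' own columns on the diet comparison were not used either. What follows is therefore a description of the 9 genes in this tissue with both diets pooled. The average carries no error of its own. The methods state only an approximate depth common to all samples, and the depth of each library was not obtained from the values used.

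An EF-hand is a helix-loop-helix fold whose loop holds a calcium ion. Some EF-hand proteins, such as the calbindins and parvalbumin, are known chiefly as buffers that take up calcium as it enters a neuron. Others are sensors, which change shape on binding calcium and then act on enzymes, channels or membranes. Because separate classes of neurons make different members, antibodies to them are widely used to tell neuron types apart. In a piece of whole tissue, fewer cells of a type and less RNA per cell cannot be told apart.

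The CPM counts reads and is not divided by the length of the mRNA, so the values below say how many of the reads fell on each gene and give no order of transcript levels. All genes here means the genes with a row in the deposited table. The methods state a minimal filter on reads per gene for the paper's diet comparison with DESeq2. Whether that filter set the rows of the deposited table, whose own comparison columns include an F value, was not established. Genes without a row enter no median or percentile of reads or span. The median over all genes was 4.94 on this log2 scale, and the extremes were -2.07 and 14.56. Of the 9 genes, 7 were above that median and 2 were below it, and 4 were past percentile 90 of all genes. Their median was 7.28 on the log2 CPM scale and their range was 4.38 log2 units. Together the 9 genes took 1526 CPM, or 0.152% of the summed CPM of the table.

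**Figure D1:**
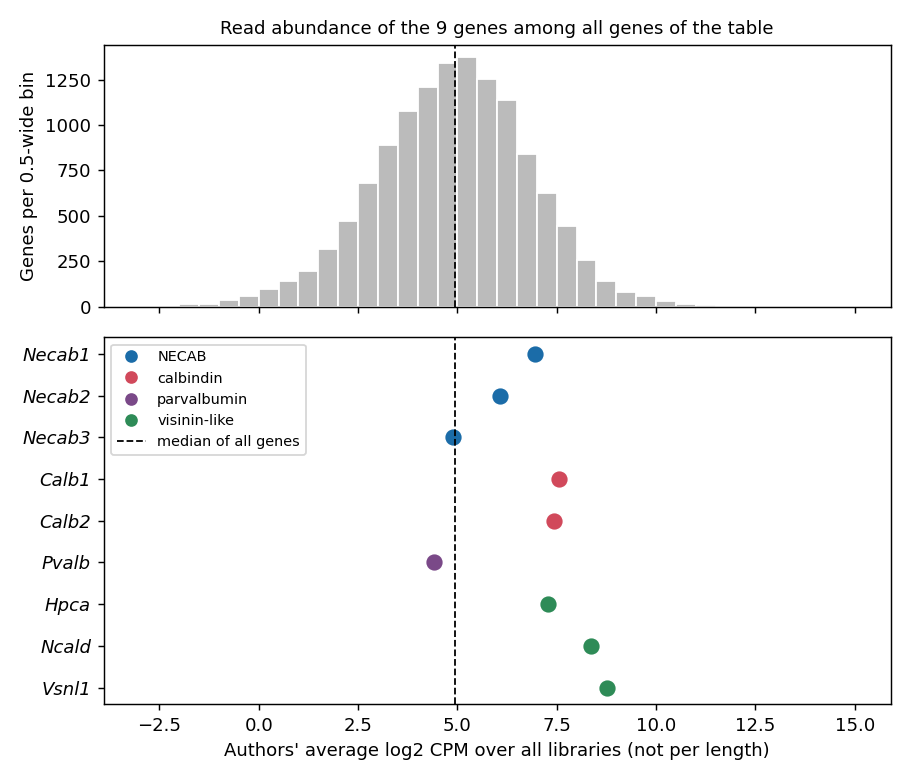
The upper panel is a histogram of the authors' average log2 CPM over all 12828 genes, in bins 0.5 wide, and the lower panel gives the value of each of the 9 genes on the same axis, coloured by protein family, with the median of all genes (4.94) as a dashed line. *Pvalb* (4.40) and *Necab3* (4.89) lie to the left of the line and the other 7 genes lie to the right of it.

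The NECAB genes code for cytoplasmic proteins with an EF-hand domain near the amino terminus and a monooxygenase-like domain at the other end. *Necab1*, the gene that led to this list, is listed by the authors at 6.96 on the log2 CPM scale, or 125 CPM. This is percentile 86.3 of all genes. *Necab2*, whose protein is known to bind receptors for adenosine and glutamate, has an average log2 CPM of 6.06, or 66.8 CPM, at percentile 72.9. *Necab3*, whose protein is known as a partner of an adaptor of the amyloid precursor protein, has 4.89, or 29.7 CPM, at percentile 49.1. The 3 NECAB genes thus drew reads in steps of about 1 log2 unit, and only *Necab3* fell below the median of the table. Together they held 14.5% of the reads of the 9 genes.

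The calbindin pair lay close together in reads. *Calb1* codes for calbindin, a fast cytoplasmic buffer, and has an average log2 CPM of 7.57 (189 CPM, percentile 92.4). *Calb2* codes for calretinin, a buffer of many interneurons and of some thalamic and hypothalamic neurons, and has 7.43 (172 CPM, percentile 91.2). The pair held 23.7% of the reads of the 9 genes. Both diets enter these averages, so nothing here says whether the 2 genes lay equally close in every dam.

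*Pvalb* codes for parvalbumin, the slow buffer of fast-spiking interneurons in cortex, striatum and other regions. Its average log2 CPM is 4.40, or 21.1 CPM, at percentile 38.6, the fewest reads of the 9 genes. It held 1.38% of their reads.

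The visinin-like genes belong to the neuronal calcium sensors, proteins with a fatty acid tail that is exposed when calcium binds and that carries them to the membrane. *Vsnl1* codes for visinin-like protein, which is released from injured neurons and is measured in spinal fluid. Its average log2 CPM is 8.78, or 439 CPM, rank 253 of all genes. *Ncald* codes for neurocalcin delta, which is known to bind clathrin and to act on guanylate cyclases, and has 8.35, or 327 CPM, rank 395. *Hpca* codes for hippocalcin, a sensor abundant in hippocampal pyramidal neurons, and has 7.28, or 156 CPM, at percentile 89.9. With 60.4% of the reads of the 9 genes, these 3 sensors drew more reads than the 6 other genes together.

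Other EF-hand genes were looked up from 4 lists with 39 genes in all, of which 33 have a row, and 22 of these were above the median of all genes. Of 10 listed neuronal calcium sensors outside the 9 genes, the 6 that have a row were all above it. They include *Hpcal4*, a close relative of *Hpca* (average log2 CPM 8.74, percentile 98.0), *Ncs1*, the neuronal calcium sensor that gave the family its name (8.22, percentile 96.4), and *Hpcal1* (6.70). The channel-binding sensors *Kcnip4*, *Kcnip1* and *Kcnip3* had 6.21, 5.53 and 5.18. No row was found for *Rcvrn*, *Kcnip2*, *Guca1a* and *Guca1b*, and they were not analysed here.

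*Scgn* codes for secretagogin, a sensor of hypothalamic and endocrine cells with the same number of EF-hands as calbindin, and has an average log2 CPM of 2.23 (percentile 8.34). *S100g*, which shares the calbindin name through its product in intestine but belongs to the S100 family, has -1.01 on the log2 scale, at percentile 0.234. No row was found for *Ocm*, a relative of *Pvalb*, so it was not analysed here. Of 8 other S100 genes, 2 were above the median of all genes, and 1 of these was *S100b* (10.33), which is made chiefly by astrocytes and not by neurons. Among 17 other EF-hand genes, 14 were above the median, with *Ppp3r1*, the regulatory subunit of calcineurin, at 8.87. No one of these lists was tested against the rest of the genes.

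**Figure D2:**
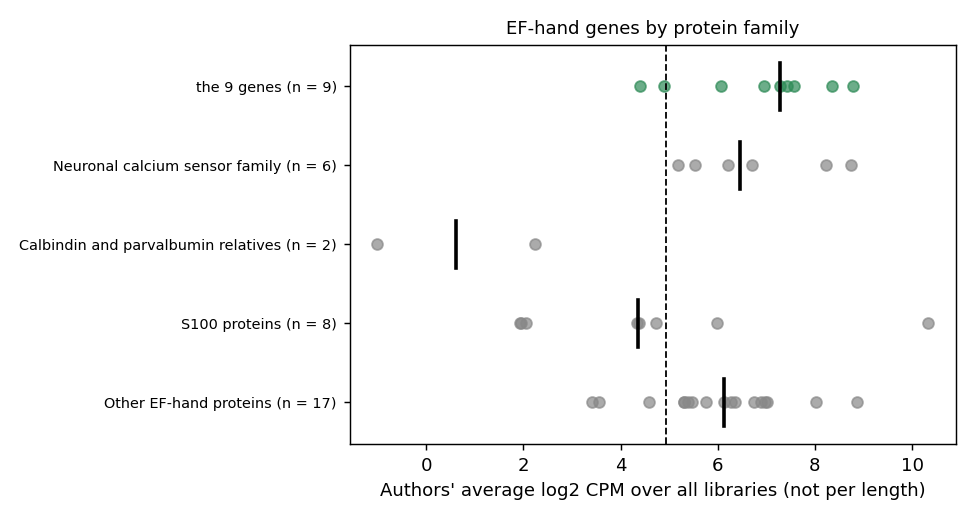
Each point is 1 gene at its average log2 CPM over all libraries, with the 9 genes in green, the other EF-hand lists in grey, the median of each list as a short black bar and the median of all genes as a dashed line. Only genes with a row are drawn. The bar of the 9 genes is at 7.28 and that of the other neuronal calcium sensors at 6.45. *S100b* is the 1 gene of these lists that passes 10 on the log2 CPM scale.

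The label of the tissue was compared with markers, again as averages over both diets. Of 10 genes listed as markers of the arcuate nucleus 9 have a row, and 1 of them, *Cartpt* (average log2 CPM 6.02), was above the median of all genes. The list and its counts include *Nr5a1* (1.88), which is a marker of the neighbouring ventromedial nucleus and not of the ARC. *Pomc*, the precursor of the satiety peptide of the ARC, has 4.67, *Agrp* has 1.42 and *Kiss1* has 0.08. No row was found for *Npy*, so it was not analysed here. All 7 markers of striatum have a row, from 4.26 (*Adora2a*) to 7.07 (*Ppp1r1b*), and 5 of them were above the median of all genes. Of 7 markers of cerebral cortex and hippocampus 5 have a row, and 2 of these were above the median of all genes. They were *Slc17a7* (7.17), the vesicular glutamate transporter of cortical neurons, and *Camk2a* (8.44). The 3 transcription factors *Tbr1*, *Neurod6* and *Neurod2* were between 2.13 and 3.34. Of 6 genes listed as thalamic markers all have a row and 3 were above the median of all genes. They were *Tcf7l2* (5.28), *Calb2* itself (7.43) and *Slc17a6* (8.09), while *Rora* (2.34), *Lef1* (3.19) and *Prkcd* (4.79) were below it. Neurons of the hypothalamus also make *Calb2* and *Slc17a6*, so these 2 genes do not tell thalamus from hypothalamus. The general neuronal markers ran from 6.14 (*Rbfox3*) to 10.44 (*Snap25*), the astrocyte markers from 5.51 to 10.22 and the oligodendrocyte markers from 7.26 to 12.59. Microglial and endothelial markers had 3.83 to 4.46 and 5.77 to 6.28. How much of the reads of *Hpca*, *Pvalb* or *Calb2* came from the ARC, and how much from regions near it, was not tested.

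The 9 genes lie on 5 chromosomes of Rnor_6.0, by the coordinates of the authors' deposited table, and all 9 are protein-coding. *Necab1* (ENSRNOG00000007256) is on chromosome 5 from 28504558 to 28737719, and *Calb1* (ENSRNOG00000007456) follows on the same chromosome from 29538380 to 29562773. The gap between them is 0.801 Mb and holds 1 gene of the table, *Tmem64*. *Necab2* (ENSRNOG00000015084) and *Calb2* (ENSRNOG00000016977) also share a chromosome, 19, from 52086325 to 52112629 and from 41482728 to 41509658. They are 10.6 Mb apart, with 55 genes of the table between them. A NECAB gene and a calbindin gene thus lie on each of these chromosomes, close together on 5 and far apart on 19.

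*Hpca* (ENSRNOG00000006979) is the third member on chromosome 5, from 147294820 to 147303346. *Ncald* (ENSRNOG00000042978) and *Pvalb* (ENSRNOG00000006471) are on chromosome 7, from 76199306 to 76488216 and from 119429019 to 119441487, with 153 genes of the table between them. *Necab3* (ENSRNOG00000016708) is on chromosome 3 from 150047826 to 150073721, and *Vsnl1* (ENSRNOG00000005345) on chromosome 6 from 37001356 to 37122023.

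The spans of the genes, introns included, differed widely. *Ncald* covers 289 kb, *Necab1* 233 kb and *Vsnl1* 121 kb, at percentiles 97.3, 96.2 and 89.7 of the spans of all genes, whose median was 21.5 kb. The other members cover between 8.53 kb (*Hpca*) and 26.9 kb (*Calb2*). The members that cover most of the genome were thus found in both the NECAB and the visinin-like family. One member, *Necab1*, overlaps another gene of the table, *LOC100912373*, by 875 bases. That gene has an average log2 CPM of 0.96, against 6.96 for *Necab1*, and how reads in the overlap were counted is not given in the sources used here. The other 8 members overlap no gene of the table.

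**Figure D3:**
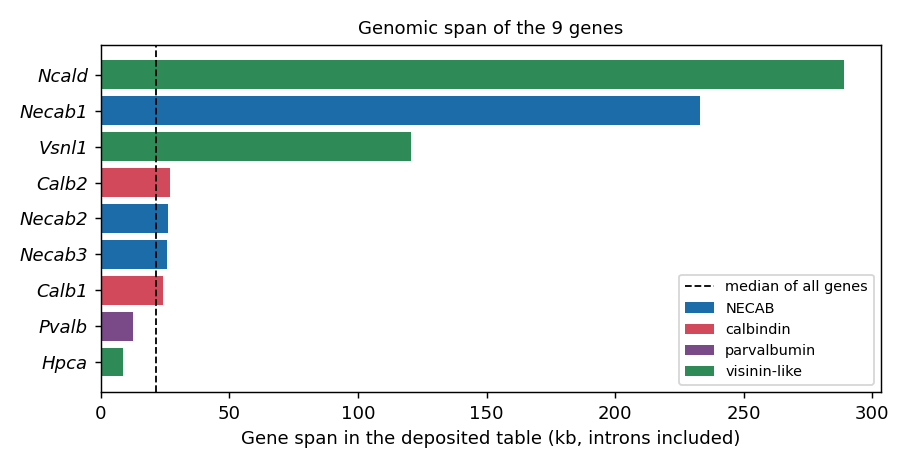
Bars give the span of each of the 9 genes in kb, introns included, from the coordinates of the authors' deposited table, coloured by protein family, and the dashed line is the median of all genes (21.5 kb). *Ncald*, *Necab1* and *Vsnl1* pass 100 kb, whereas *Pvalb* (12.5 kb) and *Hpca* (8.53 kb) stay under the median.

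RefSeq promoter windows of GRCr8, from 250 bases before to 50 after a gene's start, were at hand for 5 of the 9 genes: *Necab2*, *Necab3*, *Hpca*, *Pvalb* and *Vsnl1*. The genes without one are *Necab1*, *Calb1*, *Calb2* and *Ncald*. The start of the *Vsnl1* window is the outermost start that RefSeq gives for the gene. The starts of the other windows lie inside their genes, by 372 bases for *Necab2*, 443 for *Necab3*, 2180 for *Pvalb* and 2603 for *Hpca*, so other transcripts begin further out. The 250 bases before the start of *Vsnl1*, the member with the most reads, are shown with the GC box in capitals (chr6:39878557-39878806 of GRCr8, minus strand, 5′ to 3′).

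Vsnl1: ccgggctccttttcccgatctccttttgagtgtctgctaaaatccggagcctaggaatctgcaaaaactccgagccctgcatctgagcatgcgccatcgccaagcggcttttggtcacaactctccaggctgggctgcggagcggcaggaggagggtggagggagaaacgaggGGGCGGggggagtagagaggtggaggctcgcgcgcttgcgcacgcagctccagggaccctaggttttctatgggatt

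These bases hold 16 CpG dinucleotides and 1 GC box, which lies from 77 to 72 bases before the start on the strand of the gene. Matches were sought on both strands to the GC box (GGGCGG), the TATA box (TATAAA), the E-box (CACGTG) and the cAMP response element (TGACGTCA), none of which holds the letters of another. A GC box was found in 4 of the 5 windows, all but that of *Hpca*, and in 33.1% of the 33469 RefSeq windows. Those windows were not limited to the genes of the deposited table and were not matched to the members. The *Necab2* window held 4 GC boxes, that of *Necab3* 3, and those of *Pvalb* and *Vsnl1* 1 each. An E-box was found in the *Necab2* window alone, against 6.42% of all windows. The TATA box and the cAMP response element were in 0 of the 5 windows and in 14.2% and 1.83% of all windows.

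The windows differed in base composition. That of *Necab2* was 85.7% G and C, at percentile 99.9 of all windows, with 51 CpG dinucleotides. Those of *Necab3*, *Vsnl1* and *Pvalb* had 64.0%, 61.3% and 60.7% G and C, and that of *Hpca* had 50.7%, close to the median of 51.7%. The observed over expected ratio of CpG was 0.96 for *Necab2*, 0.84 for *Pvalb*, 0.68 for *Vsnl1*, 0.46 for *Necab3* and 0.16 for *Hpca*, where the median of all windows was 0.39. With 5 windows, and most of them at inner starts, these values describe the windows and were not tested.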

How the data were processed

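The series holds RNA-seq of the ARC from 10 dams, 5 per diet, grouped by their sample titles. Per the labels and the methods, the authors trimmed poly-A selected paired reads with Trim Galore 0.5.0, aligned them with STAR 2.6.0c to Rnor_6.0 with Ensembl gene models and counted genes with HTSeq 0.6.1p2. The strand setting of the counting is not given in the sources used here.

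The authors deposited a table of 12828 genes. Its average log2 CPM was used as deposited by the authors, on a log2 scale. The sum of 2 raised to each value is 1002152 over the table, so the base is 2. Not used were 10 per-sample columns whose headers match no sample label, and 4 columns of the authors' diet comparison (fold change, F, p-value and FDR). The tests planned for the diets were therefore not run, and the depth per library and the spread and intervals of the members were not obtained.

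Percentiles are over all rows, with 12383 protein-coding rows, or rows without repeated symbols, as alternatives. All 9 listed genes are named. One list of EF-hand relatives is not reported here. The members and lists were chosen with earlier results of these data known. Promoter windows are RefSeq's (GRCr8). Their coordinates were not set against Rnor_6.0. Calculations were made in Python 3.11.15 (pandas 2.3.3, scipy 1.17.1, numpy 2.4.6) and plots with matplotlib 3.10.9. The percentile and motif steps were tested on simulated data.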

Additional observations from a re-analysis of the deposited data

How the results depend on the processing

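No paired analysis was possible because the paper names no pairs of dams and the columns per library carry no label of a dam. Dams were allocated to the diets at random, and no source used here describes the replicate numbers in the sample titles as pairs. For lack of labels on the columns, fits without one dam, with other filters, with other pseudocounts or with another count test were not run. The number of the 9 genes above the median read abundance was 7 over all rows, over protein-coding rows and over rows whose symbol occurs once. Of 18 recomputed percentiles, 2 moved beyond the 95% exact binomial interval of the percentile, those of *Necab3* (47.7 over protein-coding rows) and *Pvalb* (37.0), and the largest shift was 1.61 percentage points. That interval treats the rows as independent draws. It served only as a yardstick for the size of a shift and measures no sampling error. All 9 percentiles were lower over protein-coding rows. Restricting the motif search to the bases before the start lowered the share of all windows with a GC box to 30.5%, with a TATA box to 12.9%, with an E-box to 5.59% and with a cAMP response element to 1.59%, while the number of member windows with each stayed at 4, 0, 1 and 0. Values per protein length and identities between proteins were not run, as no protein sequence was at hand. The values are averages over both diets and give no spread between dams.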
